A study of Mus musculus with 48 samples.

Results

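C/EBPa, encoded by Cebpa, was bound at 21969 places in mouse liver chromatin at e18.5 and P0.5 and, by the rule that chose them, at none of these places at e15.5, P14 or P60. These perinatal regions were 20.4% of the 107812 C/EBPa regions found over the 5 stages. They were chosen from the 10 C/EBPa peak lists of chromatin immunoprecipitation with sequencing (ChIP-seq). Peaks of both replicates of a stage were merged by any overlap, a stage region had to hold a peak of each replicate, and the stage regions of all stages were merged in the same way. A perinatal region held a stage region of e18.5 and of P0.5 and of no other stage. Their number and their stage pattern are therefore descriptions of the choice. Leaving out 1 list changed the number to 38855 without e18.5 replicate 2 and to 13459 without P60 replicate 1.

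The study followed untreated mouse liver from e15.5 and e18.5 through P0.5 to P14 and P60, with 2 biological replicates of C/EBPa and of HNF4a binding at each stage. RNA was sequenced from 3 wild type (WT) livers, 3 livers of CEBPalox/lox-Alfp-Cre mice and 2 livers of HNF4lox/lox-Alfp-Cre mice. In these mice the Alfp promoter drives Cre in the liver cell lineage, so that Cebpa or Hnf4a is deleted there and stays intact in blood cells and other cells of the organ. The age of the RNA samples is 60 days in their labels but E18.5 in the description of the series. In the 3 WT libraries Alb (albumin) was between 1491169 and 3098691 and Afp (alpha-fetoprotein, made by the fetal liver) between 499143 and 706964 normalized reads. The labels describe age-matched male mice on a chow or high fat diet, and do not mention pooled animals.

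C/EBPa is a basic leucine zipper protein that binds DNA as a dimer and turns on genes of the mature hepatocyte, among them those for plasma proteins and for sugar and fat metabolism. The same factor is required for the making of granulocytes from blood progenitors, and the fetal liver is the main blood-forming organ before that task moves to the bone marrow. Around birth the liver takes over glucose release and fat oxidation, and blood formation leaves it. HNF4a is a nuclear receptor that binds many liver enhancers together with C/EBPa.

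Promoter sequences of genes with a perinatal region within 1 kb of the start site are shown first, since the deposited peaks carry positions only. They come from RefSeq on the build GRCm38.p6, run from 250 bases before the start to 50 after it, and were matched by gene symbol for 1122 of 1541 genes. The first 4 belong to Fcnb, Ngp, Ms4a3 and S100a9, 4 genes of granulocytes whose start lies inside a perinatal region, and were picked after their values were seen. Capitals in them mark the letters of a C/EBP half-site pair, TTNNGCAA on either strand, which takes in the palindrome TTGCGCAA. The other two belong to genes named below by rule whose window held the palindrome or the HNF4 site. Capitals in Cyp3a16 and Osbpl6, an enzyme of steroid and drug oxidation and a lipid-binding protein, mark the HNF4 site CAAAGTCCA on either strand. The perinatal region of Cyp3a16 covered the start and held peaks of 7 HNF4a lists. That of Osbpl6 began 704 bases after the start annotated on mm9, at position 76244565 of chromosome 2, and held no HNF4a peak of any list. Osbpl6 has 2 promoter windows in RefSeq. The printed one, from 76498756 to 76499055 on GRCm38.p6, need not belong to the mm9 start, and its distance from the region was not determined.
Fcnb: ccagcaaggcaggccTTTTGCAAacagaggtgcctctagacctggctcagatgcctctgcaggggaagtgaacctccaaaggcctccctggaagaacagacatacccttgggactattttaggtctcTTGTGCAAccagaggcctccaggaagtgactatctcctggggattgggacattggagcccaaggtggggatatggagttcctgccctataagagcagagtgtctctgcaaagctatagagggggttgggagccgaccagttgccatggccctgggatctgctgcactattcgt
Ngp: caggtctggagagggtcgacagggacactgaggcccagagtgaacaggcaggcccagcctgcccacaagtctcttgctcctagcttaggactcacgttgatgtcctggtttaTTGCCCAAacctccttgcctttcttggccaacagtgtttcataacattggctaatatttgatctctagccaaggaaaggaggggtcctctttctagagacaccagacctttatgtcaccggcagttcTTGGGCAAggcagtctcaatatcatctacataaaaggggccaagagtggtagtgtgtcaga
Ms4a3: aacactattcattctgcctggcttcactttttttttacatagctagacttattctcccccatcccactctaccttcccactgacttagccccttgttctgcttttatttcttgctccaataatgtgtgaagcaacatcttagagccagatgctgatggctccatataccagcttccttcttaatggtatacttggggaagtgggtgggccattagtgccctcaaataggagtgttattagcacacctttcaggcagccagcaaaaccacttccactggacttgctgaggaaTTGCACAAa
S100a9: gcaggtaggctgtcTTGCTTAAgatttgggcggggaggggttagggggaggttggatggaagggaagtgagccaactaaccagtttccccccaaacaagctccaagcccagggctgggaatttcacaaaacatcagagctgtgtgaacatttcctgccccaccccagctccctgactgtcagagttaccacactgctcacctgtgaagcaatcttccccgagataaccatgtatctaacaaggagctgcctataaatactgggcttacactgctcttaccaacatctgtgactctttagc
Cyp3a16: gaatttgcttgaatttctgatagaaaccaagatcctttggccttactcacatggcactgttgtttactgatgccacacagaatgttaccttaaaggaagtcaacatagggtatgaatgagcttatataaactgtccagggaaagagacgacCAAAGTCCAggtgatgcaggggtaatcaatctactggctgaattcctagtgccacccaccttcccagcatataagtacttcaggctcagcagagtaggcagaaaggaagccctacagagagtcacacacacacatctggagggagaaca
Osbpl6: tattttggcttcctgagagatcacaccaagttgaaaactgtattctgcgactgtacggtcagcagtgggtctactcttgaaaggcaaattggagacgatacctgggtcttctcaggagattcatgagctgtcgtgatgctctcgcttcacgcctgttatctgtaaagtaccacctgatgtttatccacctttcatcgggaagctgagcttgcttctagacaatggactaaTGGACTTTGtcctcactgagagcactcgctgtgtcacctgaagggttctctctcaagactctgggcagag

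In the Ngp promoter the C/EBP letters TTGCCCAA began at position -138 and TTGGGCAA at position -11, counted from the start base as 0. The Fcnb promoter held TTTTGCAA at -235 and TTGTGCAA at -123, the S100a9 promoter TTGCTTAA at -236, and the Ms4a3 window TTGCACAA at 41. On the build of the peaks (mm9) the region at Ngp ran from 340 bases before to 234 bases after the annotated start, that at Fcnb from -362 to 121, that at S100a9 from -514 to 193 and that at Ms4a3 from -402 to 204. These windows are placed by each annotation's own start, which can differ by some bases, and by more where a gene has several starts. The promoters of Camp, Lyz2 and Csf3r, which also have a perinatal region over the start, held no TTNNGCAA in the window.

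The C/EBP letters were about as frequent near perinatal regions as in all promoters, a description with no test. TTNNGCAA was present in 10.8% of all 32851 windows and in 8.72% of the 1422 windows of genes with a perinatal region within 1 kb. For genes with the region over the start annotated on mm9 it was in 12.6% of 443 windows. These 443 windows belong to 365 genes, since every window of a gene was counted, and some can lie away from the region. Windows of genes with a region bound at every stage within 1 kb held TTNNGCAA in 18.3% of 1156. The palindrome TTGCGCAA stood in 0.183% of all windows, 0.211% of those near perinatal regions and 1.64% of those near every-stage regions. The HNF4 site was in 0.475% of all windows and in 0.492% of those near perinatal regions. CCGGAAGT, the core bound by ETS factors, was in 3.89% of all windows, 5.36% of windows near every-stage regions and 8.37% of windows near perinatal regions. Among the windows of genes with the perinatal region over the annotated start it was in 10.6%. TGACGTCA, the cyclic AMP response element, was in 1.79%, 2.68%, 3.87% and 4.06% of the same 4 sets. TGTTTAC, bound by FOXA factors, was in 3.65%, 3.11%, 3.59% and 4.51%. Windows of protein-coding genes alone held the C/EBP letters in 10.0%, the ETS core in 5.35%, the cyclic AMP response element in 2.29% and the FOXA letters in 2.98%. These are shares of letters in promoters, and most perinatal regions lie elsewhere.

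The perinatal regions were short. Their median width was 466 bp, and 5% were under 336 bp and 5% over 745 bp. Regions bound at every stage (7670 in number) had a median of 921 bp and regions bound at P14 and P60 only (1708) a median of 739 bp. Width reflects the called peaks, since the lists hold no peak height. The narrowest of the 4 defining peaks had a median of 278 bp per region. The region with the largest such value, chr4:154214717-154227226 near Ttc34, was 12510 bp wide and stands apart from the rest. The next was chr9:35043675-35044848, of 1174 bp, inside a protein-coding gene and 25.0 kb from the start of Foxred1, which codes for a mitochondrial complex I assembly factor. Regions at chr9:55148432-55149508, 25.1 kb from Nrg4 (a growth factor ligand), and chr17:71508534-71509465, 22.4 kb from Lpin2 (a phosphatidate phosphatase), followed among those with at most 1 HNF4a list.

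Many perinatal regions held a peak of a single replicate at another stage, which the rule allows. No peak of the 6 lists of e15.5, P14 and P60 touched 10802 of them (49.2%). A peak of 1 of these lists was present in 7705 (35.1%) and of 2 or more in 3462 (15.8%). Replicate 2 of P60 stood apart: 8514 perinatal regions (38.8%) held one of its peaks, against 518 (2.36%) for replicate 1 of P60, and 5398 (24.6%) held one of its peaks and none of the other 5 lists. That list has 89407 peaks and replicate 1 of P60 has 52237. The other lists reached 6.6% and 2.63% at e15.5 and 5.86% and 12.1% at P14.

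**Figure D1:**
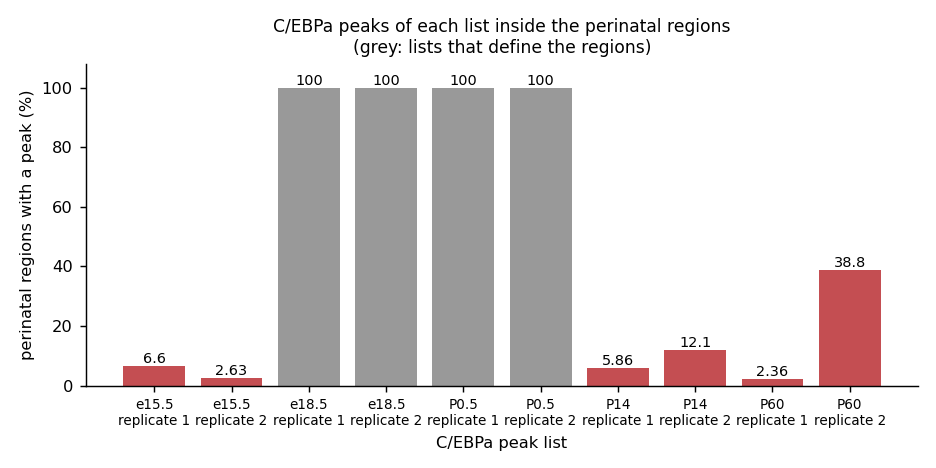
Share of the 21969 perinatal C/EBPa regions, in percent on the vertical axis, that held a peak of each of the 10 C/EBPa lists on the horizontal axis; grey bars are the 4 lists that define the regions and are at 100 by choice. The bar for P60 replicate 2 stands at 38.8, the other 5 red bars between 2.36 and 12.1.

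The peak lists differed in length. The 4 lists of e18.5 and P0.5 held 70171 to 121624 peaks, those of e15.5 13434 and 16900, those of P14 40636 and 45245, and those of P60 52237 and 89407, the longer of which exceeds the shorter e18.5 list. When each list was cut to its 13434 widest peaks, 889 regions met the rule. For e15.5 and P14, whose lists were all shorter than those of e18.5 and P0.5, the numbers of peaks and the age of the liver cannot be told apart. The same holds for P60, since the rule needs a peak of both replicates and replicate 1, with 52237, was shorter than each of those lists. Just outside the rule, 18017 of 29174 regions called at P0.5 only (61.8%) held a peak of 1 e18.5 list, and 5765 regions differed from the perinatal pattern only by a stage region at P60. Regions that failed by a stage region at P14 numbered 4498 and by one at e15.5 963.

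Most perinatal regions lay far from gene starts. Of the 21969, 1460 (6.65%, 95% Wilson interval 6.32 to 6.98) lay within 1 kb of the start of a protein-coding gene, against 14.5% (13.8 to 15.3) of every-stage regions and 2.87% (2.18 to 3.77) of regions bound at P14 and P60 only. Of all other C/EBPa regions 9.98% (9.78 to 10.2) lay within 1 kb. The start itself was inside 490 perinatal regions (2.23%) and inside 752 every-stage regions (9.8%). Every-stage regions are wider, with a median of 921 bp against 466 bp, and shares at equal widths were not taken here. Beyond the first kb the classes were alike in the nearer bins: 7.68% of perinatal and 8.36% of every-stage regions were between 2 and 5 kb away. The median distance was 26.9 kb, against 19.6 kb for every-stage regions and 38.1 kb for those of P14 and P60. A protein-coding gene overlapped 56.0% of the perinatal regions, the same share as among all other regions. These intervals cover counting error only and treat regions as independent.

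**Figure D2:**
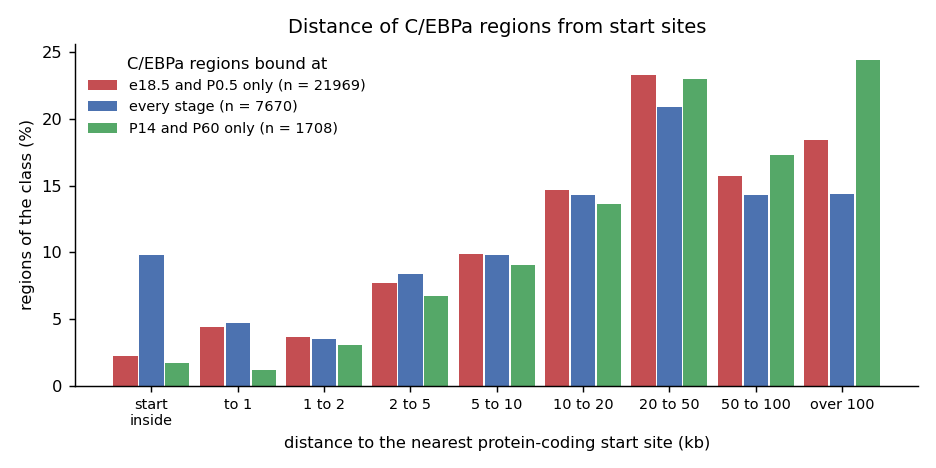
Percent of the regions of 3 classes (vertical axis) in bins of distance in kb to the nearest protein-coding start site (horizontal axis); red bars are perinatal regions, blue bars every-stage regions and green bars regions of P14 and P60 only. In the first bin, where the start is inside the region, the red bar is at 2.23 and the blue bar at 9.8.

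Perinatal regions with more traces at other stages lay nearer to starts. The share within 1 kb was 4.91% (4.51 to 5.33) of those with no peak in any of the 6 other lists, 7.22% (6.66 to 7.82) of those with a peak in 1 and 10.8% (9.81 to 11.9) of those with peaks in 2 or more. Over the same 3 sets 80.2%, 68.7% and 59.2% held no HNF4a peak of any list. The chromosomes differed little, with perinatal shares between 19.3% and 21.7% of their C/EBPa regions, except for Y with 0 of 102.

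HNF4a was rarely found at the perinatal regions. Its peaks touched 20.2% and 16.2% of them in the 2 lists of e15.5, 6.5% and 4.97% at e18.5, 9.49% at P0.5, 7.59% and 7.47% at P14, and 10.6% and 12.2% at P60. The lists of e15.5 were the highest, before C/EBPa was called at these regions, and those of e18.5 the lowest. Both P0.5 lists of HNF4a were identical and were counted once, which leaves 9 lists. At every-stage regions the shares were 68.3% and 61.3% at e15.5, 35.1% and 30.0% at e18.5, 50.5% at P0.5, 56.9% and 58.1% at P14, and 70.7% and 74.0% at P60. No HNF4a list reached the perinatal regions as often as it reached the every-stage regions.

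The difference from every-stage regions was -45.5 percentage points (SD 12.5 over 9 lists), lower in 9 of 9 lists, with an adjusted p of 0.00586 by an exact 2-sided permutation test that flips signs over lists. The unadjusted p of 0.00391 is the smallest that this exact test can give with 9 lists, and p-values were adjusted over 3 comparisons. Against all other C/EBPa regions together the difference was -11.6 points (SD 7.79), again lower in 9 of 9 lists, with an adjusted p of 0.00586 in the same exact test. Against the regions of P14 and P60 only it was -20.0 points (SD 27.0), lower in 6 of 9 lists, with an adjusted p of 0.102 in the exact test. In that class 12.8% and 10.2% held HNF4a at e15.5 and 49.0% to 70.1% at P14 and P60, so the sign of the difference changed with the stage. With windows of 400 bp in place of the called widths the difference from every-stage regions was -44.1 points. The lists share the same C/EBPa regions, and these p-values measure the spread between HNF4a lists. Except at P0.5, 2 lists come from each stage and give like shares. The test flips each list on its own, so it counts more independent units than there are stages.

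**Figure D3:**
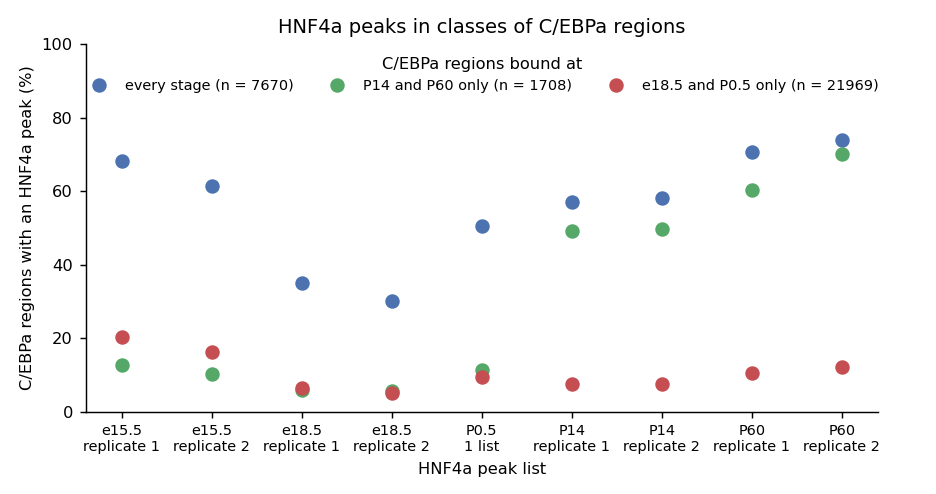
Percent of C/EBPa regions that held an HNF4a peak (vertical axis) in each of the 9 distinct HNF4a lists (horizontal axis), as 1 point per class and list. The red points of the perinatal regions lie between 4.97 and 20.2, below the blue points of every-stage regions in each list, and above the green points of the regions of P14 and P60 only at e15.5.

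The low shares of HNF4a at e18.5 and P0.5 were read against those of all C/EBPa regions. In the same list, the perinatal share was 0.829 and 0.801 times that of all regions at e15.5, 0.642 and 0.603 times at e18.5, 0.586 times at P0.5 and between 0.365 and 0.391 times at P14 and P60. The mean ratio was 0.61 over the 3 lists of e18.5 and P0.5 and 0.524 over the other 6, a difference of 0.0864 (p = 0.452, exact 2-sided permutation test). By region, 15997 (72.8%) had no HNF4a peak in any list, against 15.1% of every-stage regions, and 413 (1.88%) had one in all 9, against 20.4%. HNF4a at both e15.5 replicates and in no later list was found at 931 perinatal regions (4.24%).

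Genes of granulocytes were often neighbours of perinatal regions. Within 10 kb of the start, 13 of the 20 genes of the list of neutrophils and granulocyte precursors (65.0%) had a perinatal region, against 26.5% of all protein-coding genes, and 1 of 20 had an every-stage region, against 13.6%. Among the 26 lists a perinatal share this high was not particular to them: acute phase and plasma carriers reached 66.7%, glycogen metabolism 58.3% and liver transcription factors 57.7%, with every-stage shares of 81.5%, 50.0% and 46.2%. Within 1 kb 0 of 20 had an every-stage region, which is near the 5.51% of all genes. A perinatal region was within 1 kb of 7 of 20 (35.0%, against 6.89% of all), in each case over the start. The genes were Ngp and Camp (granule proteins), S100a9 (a calcium-binding protein abundant in neutrophils), Lyz2 (lysozyme), Fcnb (a ficolin that recognises sugars), Ms4a3 (a membrane protein of myeloid progenitors) and Csf3r (the receptor for granulocyte colony-stimulating factor). The count within 10 kb lay between 11 and 19 when any C/EBPa list was left out, was 9 among regions with no peak in the 6 other lists and fell to 2 among the 889 regions from the widest peaks. It is a description with no test, and the list was chosen with earlier results of these data known.

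The 7 regions lie at chr9:110321914-110322488 (Ngp), chr9:109751907-109752512 (Camp), chr3:90499450-90500157 (S100a9), chr10:116719116-116719604 (Lyz2), chr2:27940284-27940767 (Fcnb), chr19:11715137-11715743 (Ms4a3) and chr4:125701648-125702126 (Csf3r) on mm9. None of them held an HNF4a peak in any list. Ngp, S100a9, Lyz2 and Ms4a3 had no C/EBPa peak of any list at e15.5, P14 or P60, Camp had one in replicate 2 of e15.5, Fcnb in replicate 1 of e15.5 and Csf3r in replicate 2 of P60. Farther out, regions stood 2552 bp from the start of Ctsg, 3038 bp from that of Mpo, 1700 bp from that of Mmp8, 5963 bp from that of Mmp9, 1420 bp from that of Cxcr2 and 8996 bp from that of S100a8. These code for cathepsin G, myeloperoxidase, 2 matrix metalloproteinases, a chemokine receptor and the partner of S100a9. Over all 23 perinatal regions within 10 kb of these genes, 1 (4.35%, at Mpo) held an HNF4a peak, against 27.2% of all perinatal regions. No perinatal region lay within 10 kb of the starts of Elane, Prtn3, Cebpe, Gfi1, Ltf, Itgam and Csf1r.

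RNA of these genes was present in all 8 libraries, and 0 of the 20 changed in either knockout by limma, with 1 and 3 at an unadjusted p under 0.05 in the C/EBPa and HNF4a knockouts. Of all protein-coding genes tested 4.22% and 5.34% changed, so that a count of 0 in 20 is near the background. Summed over the list, normalized reads were 62507, 81252 and 60388 in WT, 54089, 112494 and 44340 in the C/EBPa knockout and 129254 and 119145 in the HNF4a knockout. Ngp was at 13399, 12923 and 12088 in WT, 12161, 15974 and 8595 in the C/EBPa knockout and 37418 and 32492 in the HNF4a knockout. Its HNF4a knockout values do not overlap WT, and the adjusted p was 0.101 (limma). Csf3r read 381, 399 and 331 in the WT livers and 230, 196 and 249 with C/EBPa deleted, again without overlap and with an adjusted p of 0.308 (limma). Cells of the blood keep Cebpa in these knockouts, and which cells of the liver carried the bound chromatin was not tested. In bulk RNA, fewer cells of a type and less RNA per cell cannot be told apart.

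Of 13 macrophage genes 3 (23.1%) had a perinatal region, each over the start, which is above the 6.89% of all genes within 1 kb and below the 26.5% within 10 kb. They were Cd68 (a lysosomal protein), Emr1 (the F4/80 antigen) and Lyz2, which is also in the granulocyte list. Within 10 kb the shares were 2 of 20 erythroid genes (10.0%), 4 of 14 lymphocyte genes (28.6%), 5 of 12 endothelial genes (41.7%), 3 of 12 genes of stellate cells and fibroblasts (25.0%) and 0 of 8 of mast cells and basophils. Pecam1, an adhesion molecule of endothelium, had its region over the start.

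Among hepatocyte pathways, some lists had more genes with an every-stage than with a perinatal region at the start. Amino acid catabolism had 0 of 23 genes with a perinatal region within 1 kb and 12 (52.2%) with an every-stage region. For blood coagulation these counts were 1 and 11 of 21, the 1 being Fgg, the gamma chain of fibrinogen. Over all protein-coding genes the shares within 1 kb were 6.89% for perinatal and 5.51% for every-stage regions. Perinatal counts of 0 and 1 in lists of this size are near that share of all genes. The acute phase and plasma carrier list had 3 of 27 genes (11.1%) with a perinatal and 11 with an every-stage region within 1 kb, and 18 and 22 within 10 kb. The list of C/EBP family genes and partners had 0 and 8 of 16 within 1 kb, the 0 again near the share of all genes. Cebpa itself had no perinatal region within 10 kb and 1 every-stage region. At Hnf4a a perinatal region, chr2:163333457-163334003, lay 913 bp from the start, with single-list peaks at e15.5 replicate 1 and P60 replicate 2.

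In fat oxidation and ketogenesis 5 of 24 genes (20.8%) had a perinatal region within 1 kb, against 6.89% of all genes. An every-stage region was within 1 kb of 2 (8.33%), against 5.51% of all. Within 10 kb the shares were 45.8% and 33.3%, against 26.5% and 13.6%, so both classes were above the share of all genes. Among the 5 genes within 1 kb of a perinatal region were Acadm (medium-chain acyl-CoA dehydrogenase) and Bdh1 (which makes the ketone body hydroxybutyrate). Acsl1 (which activates long fatty acids) and Slc25a20 (the carnitine carrier of mitochondria) were also among the 5. The regions covered the starts of Acadm and Bdh1, where 9 and 8 HNF4a lists had a peak. In the cell cycle list 12 of 26 genes (46.2%) had a perinatal and 6 (23.1%) an every-stage region within 10 kb. Mki67, a marker of dividing cells, had 5 perinatal regions within that distance, and Mcm6, a subunit of the replicative helicase, had 2. Of the 17 regions near cell cycle genes 13 (76.5%) had no C/EBPa peak in the 6 other lists, against 49.2% of all perinatal regions. The glucocorticoid, insulin and fasting list had 10 of 22 genes (45.5%) with a perinatal and 9 (40.9%) with an every-stage region, and Igfbp1, which binds insulin-like growth factors, had 5 perinatal and 3 every-stage regions.

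**Figure D4:**
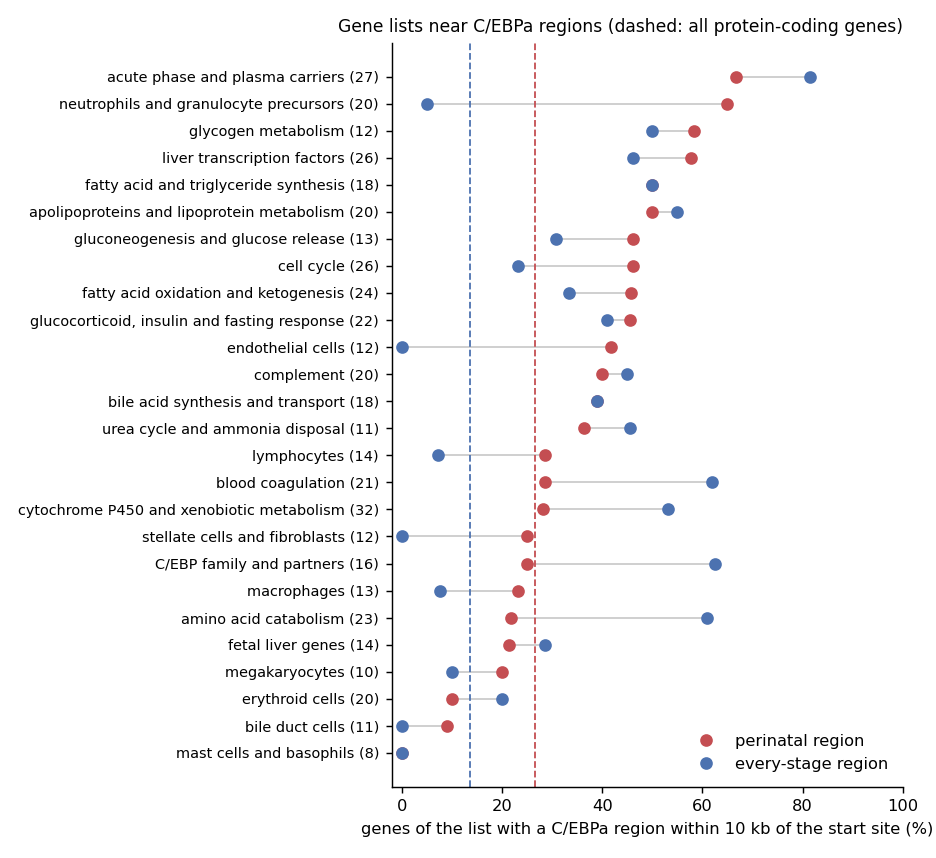
Percent of the genes of each of 26 lists (horizontal axis) that had a perinatal (red) or an every-stage (blue) C/EBPa region within 10 kb of the start; list sizes are in parentheses, dashed lines give all protein-coding genes at 26.5 and 13.6, and where only 1 point shows both coincide. Neutrophils and granulocyte precursors stand at 65.0 and 5.0, amino acid catabolism at 21.7 and 60.9.

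RNA of the deleted gene was lower in each knockout. Cebpa was at 9999, 9594 and 5511 normalized reads in WT and 322, 419 and 998 in the C/EBPa knockout, a log2 change of -3.98 ± 0.44 (SE) with a limma adjusted p of 0.000413. Hnf4a was at 9098, 4948 and 6718 in WT and 1238 and 2444 in the HNF4a knockout, a change of -1.95 ± 0.45 with an adjusted p of 0.033. That call was lost without replicate 1 of the HNF4a knockout (adjusted p = 0.44), replicate 1 of WT (0.142) or replicate 3 of WT (0.0879). Skeletal muscle genes summed to 654854 normalized reads in replicate 1 of the HNF4a knockout and to at most 1313 in any other, and their part in the results below was not tested except where values without that library are given.

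Genes with a perinatal region within 1 kb of the start changed about as often as any gene. Of 1541 such genes 1388 passed the filter on low values, and 52 of them (3.75%) changed in the C/EBPa knockout, against 4.22% of 14942 protein-coding genes. They comprised 43 lower genes (3.1%, against 3.23%) and 9 higher ones (0.648%, against 0.99%). Near every-stage regions 122 of 1152 genes (10.6%) changed, all of them lower. With libraries scaled to equal totals the median of all genes shifted from 0.03 to 0.53 (log2), and the perinatal split became 28 lower and 38 higher and the every-stage split 81 lower and 9 higher. Over all genes the split moved from 509 lower and 157 higher to 324 and 474, so these splits are relative to the deposited scaling. No gene named for its change reversed direction under the equal totals. Within 10 kb, 120 of 3951 genes with a perinatal but no every-stage region (3.04%) changed, 102 of 1064 with both (9.59%), 160 of 1645 with an every-stage but no perinatal region (9.73%) and 249 of 8282 with neither (3.01%). The shares with and without a perinatal region were thus near each other at either level of every-stage binding. They are counts with no test of their difference, and the 52 became 25 without replicate 1 of WT, 30 without replicate 1 of the C/EBPa knockout and 31 without replicate 2 of WT.

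The 10 lowest genes near perinatal regions in the C/EBPa knockout were Saa3, Cyp3a16, Slc27a5, Il1rn, Inhbe, Cyp2d9, A2m, Adm2, 2310007B03Rik and Cpsf4l, the largest fold being that of Saa3. Every-stage regions also lay within 10 kb of Saa3, Cyp3a16, Slc27a5, Il1rn and 2310007B03Rik (1 each) and of Inhbe (2). The part of either class of region in these changes was not tested. Cyp3a16 was at 4705, 3463 and 4934 normalized reads in WT and 158, 102 and 148 in the knockout, 32.1-fold lower on the log2(value + 1) scale (adjusted p = 2.48e-05, limma). Slc27a5, the bile acid-CoA ligase of liver, was at 2487, 1882 and 1350 against 37, 53 and 163 (26.6-fold lower, limma adjusted p = 0.000438). Il1rn, the interleukin-1 receptor antagonist, was at 540, 560 and 531 against 23, 21 and 18 (25.2-fold lower, limma adjusted p = 5.07e-05). The groups did not overlap for any of these. Inhbe, the inhibin beta E subunit made by liver, fell from 1822, 739 and 246 to 25, 11 and 41, and Cyp2d9, a cytochrome P450, from 1308, 1665 and 844 to 27, 27 and 131. A2m, a protease inhibitor of plasma, fell from 18576, 31005 and 46563 to 2942, 522 and 5049. Cyp3a16, Slc27a5, Il1rn, Inhbe, Cyp2d9 and A2m passed in every fit that left out 1 library. Cyp3a16 and Cyp2d9 have close relatives in the genome, so their reads may be shared with those.

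Saa3, an acute phase apolipoprotein, read 312, 961 and 87 in the WT livers and 2, 0 and 41 with C/EBPa deleted, 59.5-fold lower on the log2(value + 1) scale, with an adjusted p of 0.0187 (limma) that rose past the threshold, to at most 0.0914, when replicate 1 or 2 of the knockout, or replicate 1 or 2 of WT, was left out. Its region, chr7:53970967-53971445, covered the start and held peaks of 3 single lists at other stages. Adm2, 2310007B03Rik and Cpsf4l also fell, at WT means of 91.7, 80.7 and 38.3 normalized reads, and each lost its call when replicate 1 of the knockout, replicate 1 of WT or replicate 2 of WT was left out. Adm2 and 2310007B03Rik lost it also without replicate 2 of the knockout. In the fat oxidation list Acadm fell from 9660, 11393 and 8067 to 2447, 2038 and 2610 and Acsl1 from 26229, 19689 and 24851 to 4341, 3794 and 7301. Acsl1 also had 2 every-stage regions within 10 kb. Bdh1 was at 6062, 6183 and 4772 in WT and 5194, 2467 and 5732 in the C/EBPa knockout (limma adjusted p = 0.699), and at 614 and 769 in the HNF4a knockout (limma adjusted p = 0.002). Over the 11 genes of that list with a perinatal region within 10 kb, 3 were lower and 0 higher in the C/EBPa knockout. Other lists of genes with a region within 10 kb gave 4 lower and 0 higher of 6 for gluconeogenesis and glucose release, 7 lower and 1 higher of 17 for acute phase and plasma carriers, and 6 lower and 0 higher of 9 for cytochrome P450 and xenobiotic metabolism. Of all protein-coding genes 3.23% were lower and 0.99% higher. Every-stage regions lay within 10 kb of 33.3%, 30.8%, 81.5% and 53.1% of the genes of these lists in turn. Of all protein-coding genes 13.6% had one. Changed genes of the lists without a perinatal region were not counted, and the part of either class of region was not tested. Of the 17 pathway lists, 13 had between 2 and 7 lower genes, and the lists of fetal liver genes, glucocorticoid, insulin and fasting response, cell cycle, and C/EBP family and partners had 0. A higher gene was found in 3 lists, 1 each, in acute phase and plasma carriers, liver transcription factors and the cell cycle.

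Higher genes in the C/EBPa knockout were few. Styk1, a kinase-like membrane protein, was at 2, 2 and 3 in WT and 130, 105 and 104 in the knockout, and Cxcl10, an interferon-induced chemokine, at 36, 32 and 107 against 1092, 2233 and 624. Cldn2, a tight junction protein, was at 68, 42 and 106 against 657, 509 and 577 (8.49-fold higher, limma adjusted p = 0.00167). Slc22a8, an organic anion transporter, was at 3, 2 and 4 against 127, 87 and 52. These 4 passed in every fit without 1 library, and no knockout library reached into the WT range. Osbpl6, Pdgfd (a platelet-derived growth factor), Mycn (a MYC family factor), Ubqln2 (a ubiquilin) and 2610002D18Rik were the other 5, with folds between 2.84 and 11.3, and each lost its call without replicate 1 of WT. Without replicate 1 of the knockout the call was lost for these genes except Ubqln2, without replicate 2 of WT for Pdgfd, Mycn and 2610002D18Rik, without replicate 2 of the knockout for Osbpl6 and 2610002D18Rik, and without replicate 3 of WT for Mycn and 2610002D18Rik. The call of 2610002D18Rik was lost whichever of the 8 libraries was left out. Bile duct markers moved in the same libraries: 5 of 9 tested were higher in the C/EBPa knockout, with list sums of 1559 to 3043 in WT and 9286 to 11539 in the knockout. Their part in these results was not tested.

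**Figure D5:**
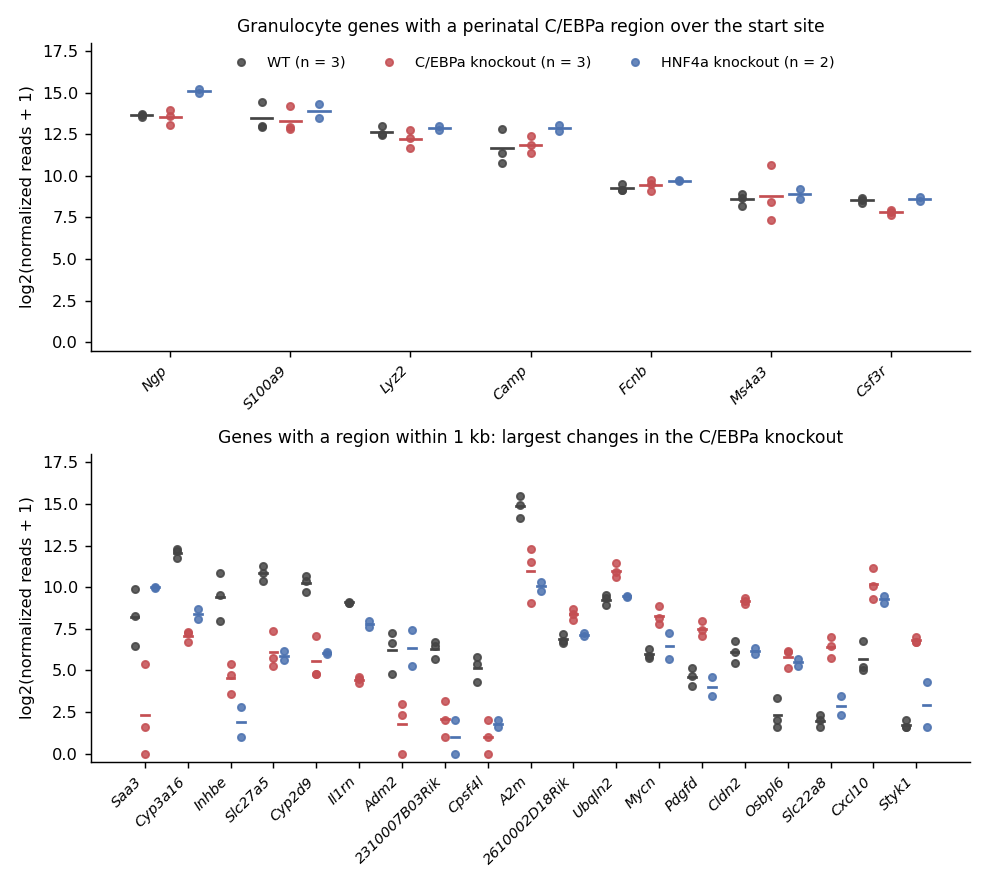
RNA of genes with a perinatal C/EBPa region, as log2(normalized reads + 1) on the vertical axis, with 1 point per library and a short line at the group mean: WT in grey, C/EBPa knockout in red and HNF4a knockout in blue. The upper panel holds the 7 granulocyte genes, where the points of WT and of the C/EBPa knockout overlap except for Csf3r, and the lower panel the 10 lowest and all 9 higher genes of the C/EBPa knockout contrast, where their points are apart.

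In the HNF4a knockout 66 of the 1388 genes (4.76%) changed, against 5.34% of all protein-coding genes, 45 of them lower (3.24%, against 3.64%) and 21 higher (1.51%, against 1.7%). Near every-stage regions 116 of 1152 (10.1%) changed. The 66 became 20 without replicate 1 of the HNF4a knockout, 33 without replicate 2, 31 without replicate 1 of WT, 42 without replicate 3 of WT and 105 without replicate 3 of the C/EBPa knockout. Both contrasts share the WT libraries. Markers of stellate cells and fibroblasts were higher in the HNF4a knockout for 3 of 12 genes, with list sums of 98228 and 41238 against 14104 to 21314 in WT. Of 13 macrophage markers 1 was higher, with sums of 34303 and 41106 against 21101 to 23763. The part of these cells in the results was not tested.

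Inhbe was at 1 and 6 in the HNF4a knockout, Slc27a5 at 70 and 49 and Cyp3a16 at 268 and 419, each below every WT library and each called in every fit without 1 library. C8a, a subunit of complement C8, was at 2533, 1740 and 2772 in WT and 52 and 105 in the HNF4a knockout (30.7-fold lower, limma adjusted p = 0.000705). Wdr52 fell from 102, 78 and 183 to 0 and 2, and 2310007B03Rik from 88, 104 and 50 to 3 and 0, the second losing its call without replicate 2 of the HNF4a knockout or replicate 1 of WT. Nr1i2, the xenobiotic receptor PXR, has its perinatal region over the start with a peak in all 9 HNF4a lists, and fell from 1372, 872 and 1048 to 55 and 97 (limma adjusted p = 0.000871). In the C/EBPa knockout it was at 465, 304 and 750 (limma adjusted p = 0.172). Nr1i2 also had 2 every-stage regions and 1 region of P14 and P60 only within 10 kb. Its perinatal region held C/EBPa peaks of P14 replicate 1 and P60 replicate 2. The part of each region in these values was not tested.

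Among the genes that rose, Dpysl5, a protein of growing neurons, was at 21, 13 and 11 in WT and 401 and 348 in the HNF4a knockout, and was called in every fit without 1 library. Nos2, the inducible nitric oxide synthase, was at 4, 0 and 0 against 80 and 55, and Btbd17 at 0, 2 and 3 against 67 and 51. Both calls were lost when either HNF4a knockout library was left out, that of Nos2 also without replicate 3 of WT and that of Btbd17 without replicate 1 of WT. Sh3bgr was at 566 and 69 and Fbxl22 at 525 and 89 in the HNF4a knockout, with the higher value of each in the library rich in muscle RNA. Without that library their calls were lost.

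Genes beside perinatal regions with and without HNF4a are set side by side here. Of the genes within 1 kb of a region with peaks in all 9 HNF4a lists, 41 were tested, of which 9 (22.0%) were lower and 0 higher in the HNF4a knockout, and 5 (12.2%) changed in the C/EBPa knockout, against 5.34% and 4.22% of all protein-coding genes changed in either direction. Beside regions with peaks in 1 to 8 HNF4a lists, 34 of 665 genes (5.11%) changed in the HNF4a knockout, 5 higher and 29 lower. In the C/EBPa knockout 25 of the 665 (3.76%) changed, and both shares are near those of all genes. Beside regions with no HNF4a peak, 25 of 708 genes (3.53%) changed in the HNF4a knockout, 17 higher and 8 lower, and 23 (3.25%) in the C/EBPa knockout. Regions with HNF4a only at e15.5 had 38 tested genes, of which 0 changed in the HNF4a knockout by limma, with 6 at an unadjusted p under 0.05, and 1 in the C/EBPa knockout. A count of 0 in 38 is near the background. The sets of 41 and 38 genes are small, and none of these counts has a test.

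Some genes with a perinatal region at the start varied widely between replicates. Igfbp1 was at 54220, 57104 and 64250 in the WT livers and 1774, 1659 and 54292 with C/EBPa deleted, where replicate 3 lay inside the WT range (limma adjusted p = 0.142). Apoa2, an apolipoprotein of high-density lipoprotein, ran from 14924 to 80827 within WT. Ppargc1a, a coactivator induced by fasting, was at 390, 380 and 569 in WT, 203, 178 and 288 in the C/EBPa knockout and 160 and 157 in the HNF4a knockout, with adjusted p of 0.178 and 0.058 (limma). All 5 knockout values are below the lowest WT value. Scd1 (stearoyl-CoA desaturase) fell to 652, 509 and 637 in the C/EBPa knockout, from 2762, 1731 and 7474, and Lpin1 (a phosphatidate phosphatase) to 592, 475 and 1682 from 5249, 5098 and 7324, both called in every fit without 1 library.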

How the data were processed

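Peak lists give starts and ends on mm9; the score column the authors deposited is 0 throughout and was not used. The submitters' processing notes name MACS 1.4, BWA, TopHat2, Cufflinks, DESeq and bedtools. RNA values are a score per gene, as deposited by the authors: whole numbers that the name of the authors' table calls DESeq-normalized reads. Totals ran from 13.4 to 26.0 M per library. Intervals were merged in Python 3.11.15 and checked against bedtools 2.31.1. Genes with at least 10 in at least 2 libraries (17771) were tested on log2(value + 1) with limma 3.58.1 in R 4.3.3, all 8 libraries in 1 fit, 2-sided, with a threshold of 0.05 on p-values adjusted by Benjamini-Hochberg across the genes tested; the code was tested on simulated data. HNF4a shares were compared over lists by exact sign flips. Labels do not say whether RNA replicates are separate animals, so p-values measure only the spread between these samples. Named genes: the 10 highest and 10 lowest called at least 2-fold without overlap within 1 kb of a region (5 and 5 for HNF4a), genes of fixed lists within 1 kb, the 10 widest regions, Cebpa and Hnf4a; not all are printed, and 1 is not reported here. The GC fraction per gene that the authors deposited was not used. The members and lists were chosen with earlier results of these data known. The 20 RNA polymerase II and input samples were not used here. The aligner settings and peak thresholds are not given in the sources used here.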

Additional observations from a re-analysis of the deposited data

How the results depend on the processing

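Stricter choices of regions moved the counts. With the 13434 widest peaks of each list, 889 regions met the rule, 10.9% of them within 1 kb of a start, with 2 granulocyte genes within 10 kb and 7 and 3 called genes within 1 kb in the C/EBPa and HNF4a knockouts. With no peak of either replicate at other stages the values were 10802 regions, 4.91%, and 13 and 15 called genes, and the HNF4a difference from regions of P14 and P60 only was -24.2 points (adjusted p = 0.043, exact sign flips). Leaving out 1 C/EBPa list gave 13459 regions (without P60 replicate 1) to 38855 (without e18.5 replicate 2) and 5.54% to 7.37% within 1 kb. The share was 10.3% within 2 kb, 27.9% within 10 kb and 8.43% within 1 kb of any gene of the table. Granulocyte genes numbered 7 within 1 kb. Called genes numbered 222 and 291 within 10 kb, and 382 and 467 when linked to the nearest start. Leaving out 1 RNA library gave 25 to 63 called genes near perinatal regions and 311 to 804 of all genes (main 666) in the C/EBPa contrast, and 20 to 105 and 238 to 1372 (main 836) in the HNF4a contrast; a lone remaining HNF4a knockout was assumed to vary like the other groups. Without WT replicate 3 and C/EBPa knockout replicate 1 together the counts were 15 and 216, and 29 and 347. With only the compared groups, the HNF4a contrast gave 115 and 1475. Replicate numbers did not pair samples (correlations of deviations -0.231 to 0.19); with the replicate block the counts were 40 and 486 for HNF4a and 41 and 509 for C/EBPa. The causes of these shifts were not tested. The HNF4a differences from every-stage and from all other regions kept their direction and their side of the threshold in every setting tried. No tested difference and no named gene changed direction. Chosen after seeing the data were the windows of 400 bp, all genes of the table, the joint omission of 2 libraries, every alternative for granulocyte genes, and the called genes near regions under the stricter choices.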
